A study of Homo sapiens with 8 samples.

Results

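Integrins are the main receptors by which cells hold on to the extracellular matrix, and the 10 genes described here encode their subunits: ITGA2, ITGA3, ITGA5, ITGA6, ITGA11 and ITGAV for alpha chains, and ITGB1, ITGB2, ITGB3 and ITGB5 for beta chains. They were picked by name among the 25369 genes of the RNA-seq tables, with earlier results of these data known, and all 10 had enough counts to be tested among 14570 genes. The cells were LX-2, an immortalized line of human hepatic stellate cells (HSCs), the liver cells that turn into matrix-producing myofibroblasts in fibrosis, labelled as wild type. They were grown on polyacrylamide hydrogels for 2 or 4 days, either on a soft matrix of 2 kPa, near normal liver, or on a stiff matrix of 40 kPa, near cirrhotic liver. Plasma fibronectin was crosslinked to the surface of the hydrogels of both stiffnesses. Each of the 4 conditions had 2 libraries from 1 cell line, 8 libraries in all, and the p-values below measure the spread between these libraries only.

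An integrin is a heterodimer of an alpha and a beta chain, and the chains it pairs decide which matrix protein it binds. The product of ITGB1 pairs with each of the 6 alpha chains listed here. With that of ITGA5 it forms the classical fibronectin receptor, with those of ITGA2 and ITGA11 collagen receptors, and with those of ITGA3 and ITGA6 laminin receptors. ITGAV pairs in addition with ITGB3 and ITGB5 in receptors for vitronectin and related ligands, some of which bind and activate latent TGF-beta, the main fibrogenic cytokine. ITGB2 encodes the beta chain of leukocyte integrins and pairs with the alpha chains ITGAL, ITGAM, ITGAX and ITGAD. Inside the cell, talins and kindlins bind the beta tail and link the receptor to actin in focal adhesions, where force on the matrix is sensed. The samples were compared between the matrices at each day and between the days on each matrix, to ask how the receptors for the matrix were transcribed on substrates of different stiffness.

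Total counts per library lay between 19955975 and 27263935, with a median of 22598474, and the integrin subunit genes took 0.144% to 0.267% of them. The libraries of the stiff matrix at day 4 stood apart from each other. Chi-square divided by its degrees of freedom, taken over the counts of all genes, was 112.3 between these 2 replicates and 3.38 to 18.9 between those of the other conditions. Of the 13 markers of HSCs and myofibroblasts, 9 had enough counts to be tested. VIM was at 921 to 2938 FPKM, TAGLN at 218 to 601, TIMP1 at 174 to 339, SPARC at 121 to 218 and COL1A1 at 83.9 to 172 FPKM. ACTA2, which encodes the smooth muscle actin of myofibroblasts, was at 4.32 to 10.3 FPKM, PDGFRB at 1.88 to 4.31, COL3A1 at 0.962 to 7.30 and COL1A2 at 0.389 to 0.734 FPKM. PDGFRA, DES and LRAT, which serves retinoid storage, reached at most 0.154, 0.0434 and 0.00997 FPKM. The markers of the labelled cell type thus ranged from very high to near 0. Markers of hepatocytes (6 genes), endothelium (5 genes) and epithelium (4 genes) summed to at most 2.99, 1.03 and 11.4 FPKM in any library. The 9 leukocyte markers summed to 48.8 to 66.8 FPKM, of which CD68, a lysosomal gene also used by other cells, made up 45.2 to 63.4 FPKM.

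Levels of different genes were compared in FPKM, which scales fragment counts by library size and by gene length. ITGB1 was the most abundant subunit in every condition, with condition means between 240 and 337 FPKM. ITGA3 followed at 83.8 to 105 FPKM and ITGA5 at 54.0 to 66.3 FPKM, the same order in all 4 conditions with no overlap between libraries of neighbouring genes. ITGA6 (13.6 to 27.4 FPKM) and ITGB5 (9.89 to 16.7 FPKM) came next. Below them lay ITGAV at 6.05 to 11.5 FPKM, ITGA2 at 1.78 to 5.70 FPKM and ITGB3 at 3.27 to 4.26 FPKM. ITGB2 (0.368 to 1.82 FPKM) and ITGA11 (0.213 to 0.507 FPKM) were the lowest, except that ITGB2 reached the level of ITGA2 on the stiff matrix at day 4. Neighbours whose libraries overlapped, and whose order was therefore not resolved, were ITGB5 and ITGAV, and ITGA2 and ITGB3, on the soft matrix at day 4, and ITGAV and ITGB3, and ITGB2 and ITGA2, on the stiff matrix at day 4.

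**Figure D1:**
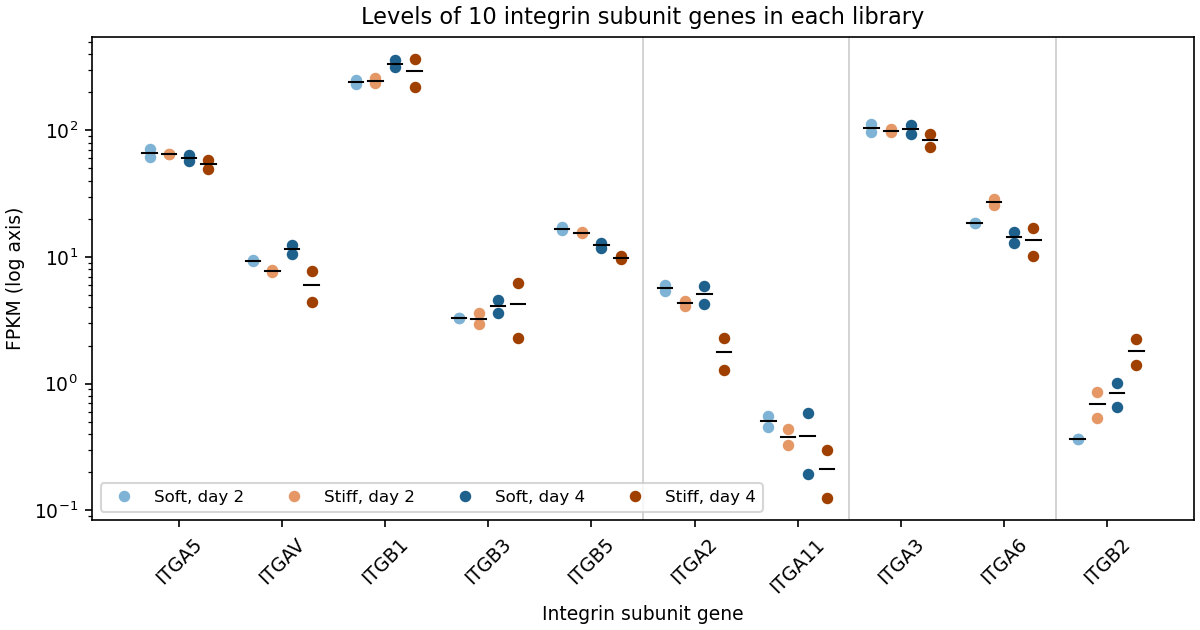
Level of each of the 10 integrin subunit genes in FPKM on a log axis, grouped by ligand class of the receptor (fibronectin and vitronectin, collagen, laminin, leukocyte). Points are libraries, 2 per condition, and short bars are condition means. ITGB1 is highest in every condition, and the replicates of the stiff matrix at day 4 lie farthest apart for most genes.

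The laminin-binding and fibronectin-binding alpha chains dominated. ITGA3 made up 47.8% to 52.8% of the summed FPKM of the 6 alpha chains in each library, and ITGA5 made up 30.6% to 35.8%. Together, the 10 genes held 91.1% to 95.9% of the summed FPKM of the 26 known integrin subunits. The ratio of ITGB1 to the sum of all the alpha chains with which it pairs at day 2 was 1.01 and 1.21 for soft and 1.21 and 1.08 for stiff libraries. At day 4 it was 1.66 and 1.63 for soft and 1.91 and 1.46 for stiff libraries. All 4 ratios of day 4 lay above all 4 of day 2. These are ratios of RNA levels, and no protein was measured here.

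Among the receptors for fibronectin and vitronectin, ITGA5, the alpha chain of the fibronectin receptor, is on chromosome 12 (reverse strand, 54789045 to 54813050 in GRCh37, the build of all gene positions given here). Its expression in TMM-normalized CPM, the count scaled to the library, was 301 and 263 on the soft and 276 and 278 on the stiff matrix at day 2, and 245 and 278 on the soft and 249 and 214 on the stiff matrix at day 4. No condition separated fully from the other matrix of the same day. The study reports AP-1 motifs in primed chromatin regions, which became more accessible before nearby genes rose. Promoter windows do not stand for those regions. Among the RefSeq promoter windows searched, ITGA5 was the only member with an AP-1 match. RefSeq windows of 300 bases around annotated starts (GRCh38.p14) were at hand for 7 of the 10 genes, in 12 windows. ITGA3, ITGB2 and ITGB3 had none, and ITGB2 is among the primed loci that the study shows. The AP-1 sequence TGAGTCA, or TGACTCA on the other strand, occurred in 1 of the 12, against 4.95% of all 35116 windows. The TEAD sequence GGAATG, or CATTCC on the other strand, occurred in 2 of the 12, in ITGA5 and ITGB1, against 14% of all. The sequence below shows where the matches lie in ITGA5, at chr12:54419257-54419516 on the reverse strand, from 250 bases before the start to 10 after it. Capitals mark the TEAD match, whose first base is 82 bases before the start, and the AP-1 match, whose first base is 6 bases before it.
ITGA5: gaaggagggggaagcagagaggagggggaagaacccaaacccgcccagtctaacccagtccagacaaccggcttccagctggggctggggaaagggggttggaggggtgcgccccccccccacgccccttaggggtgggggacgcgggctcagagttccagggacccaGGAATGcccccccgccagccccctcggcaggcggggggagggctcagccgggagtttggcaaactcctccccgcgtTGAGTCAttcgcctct
A match is a description of the letters only, and ITGA5 itself was not called between matrices or days with all 8 libraries.

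ITGAV, the alpha chain of the vitronectin receptors, lies on chromosome 2 from 187454737 to 187545628 on the forward strand. It was at 68.2 and 67.1 CPM on the soft and 54.8 and 56.5 CPM on the stiff matrix at day 2. At day 4 it was at 76.6 and 91.2 CPM on the soft and 55.9 and 32.1 CPM on the stiff matrix. Both stiff libraries lay below both soft libraries at each day, and the values of the stiff matrix at day 4 were far apart. ITGB1, the common beta chain, lies on chromosome 10 from 33176201 to 33294720 on the reverse strand. Its level was 950 and 1013 CPM on the soft and 1053 and 958 CPM on the stiff matrix at day 2, and 1296 and 1494 CPM on the soft and 1513 and 910 CPM on the stiff matrix at day 4. The lower library of the stiff matrix at day 4 had less ITGB1 than any other library, and its replicate had the most. ITGB3, a beta chain partner of ITGAV and the platelet fibrinogen receptor chain, lies on chromosome 17 from 45331193 to 45391109 on the forward strand. ITGB3 was at 16.1 and 16.05 CPM on the soft and 17.6 and 14.4 CPM on the stiff matrix at day 2, and at 17.7 and 22.7 CPM on the soft and 30.7 and 11.3 CPM on the stiff matrix at day 4. Again the highest and the lowest value of all 8 libraries were the replicates of the stiff matrix at day 4. ITGB3 shares 33.2% of its exonic bases with the gene ENSG00000259753 on the same strand, so its counts are uncertain.

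ITGB5, the other beta chain partner of ITGAV in this list, lies on chromosome 3 from 124480795 to 124620265 on the reverse strand. It was at 57.9 and 54.9 CPM on the soft and 52.1 and 52.7 CPM on the stiff matrix at day 2, and at 39.7 and 44.7 CPM on the soft and 34.3 and 33.1 CPM on the stiff matrix at day 4. The 4 conditions did not overlap for ITGB5, and its replicates stayed close to each other in every condition, the stiff matrix at day 4 included.

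The collagen receptor chain ITGA2 lies on chromosome 5 from 52285170 to 52390609 on the forward strand. It was at 42.8 and 47.4 CPM on the soft and 32.3 and 35.6 CPM on the stiff matrix at day 2. At day 4 ITGA2 was at 34.0 and 47.8 CPM on the soft matrix and at 18.1 and 10.3 CPM on the stiff matrix. Both stiff libraries of day 4 lay below the other 6 libraries. Its RefSeq promoter is shown because ITGA2 had the largest difference between the matrices at day 4 of the 10 genes. It spans chr5:52989102-52989361 (GRCh38.p14, forward strand), and capitals mark the sequence GGGCGG of Sp factors, found 4 times, with the first base 119, 73, 63 and 9 bases before the start.
ITGA2: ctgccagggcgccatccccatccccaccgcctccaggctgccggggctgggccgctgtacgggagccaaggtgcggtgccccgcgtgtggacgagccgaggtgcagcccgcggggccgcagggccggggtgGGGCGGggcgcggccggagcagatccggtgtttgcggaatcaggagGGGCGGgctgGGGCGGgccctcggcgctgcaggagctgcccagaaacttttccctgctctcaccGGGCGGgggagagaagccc
GGGCGG, or CCGCCC on the other strand, occurred in 8 of the 12 windows of these genes and in 45% of all windows, so it is common in promoters in general. ITGA11, a collagen receptor chain of fibroblasts, lies on chromosome 15 from 68588870 to 68724502 on the reverse strand. It had 80 and 63 counts on the soft and 39 and 52 counts on the stiff matrix at day 2, and 21 and 66 counts on the soft and 31 and 11 counts on the stiff matrix at day 4. At these low counts the replicates of day 4 were farther apart than those of day 2 on either matrix.

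Of the laminin receptor chains, ITGA3 lies on chromosome 17 from 48133332 to 48167845 on the forward strand and ITGA6 on chromosome 2 from 173292082 to 173371187 on the forward strand. ITGA3 was at 567 and 486 CPM on the soft and 487 and 513 CPM on the stiff matrix at day 2, and at 471 and 566 CPM on the soft and 477 and 374 CPM on the stiff matrix at day 4. Its matrices overlapped at both days. ITGA6 was at 107 and 108 CPM on the soft and 168 and 150 CPM on the stiff matrix at day 2. At day 4 it was at 76.0 and 94.3 CPM on the soft and 99.9 and 59.8 CPM on the stiff matrix. The stiff libraries of ITGA6 were the highest of all at day 2 and overlapped those of the soft matrix at day 4.

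The leukocyte chain ITGB2 lies on chromosome 21 from 46305868 to 46351904 on the reverse strand. It had 33 and 32 counts on the soft and 64 and 40 counts on the stiff matrix at day 2, and 69 and 47 counts on the soft and 90 and 124 counts on the stiff matrix at day 4. In CPM these were 1.16 and 1.15, then 2.69 and 1.68, then 3.22 and 2.12, and then 4.42 and 7.14. The libraries of the stiff matrix at day 4 were the highest, and those of the soft matrix at day 2 the lowest. Exons of ITGB2-AS1, on the opposite strand, share 303 bases or 4.15% of the exons of ITGB2. Without a stated strand setting of the counting, reads in those bases cannot be assigned to either gene. ITGB2-AS1 had 9 to 18 counts in the other 6 libraries and 36 and 45 counts on the stiff matrix at day 4.

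**Figure D2:**
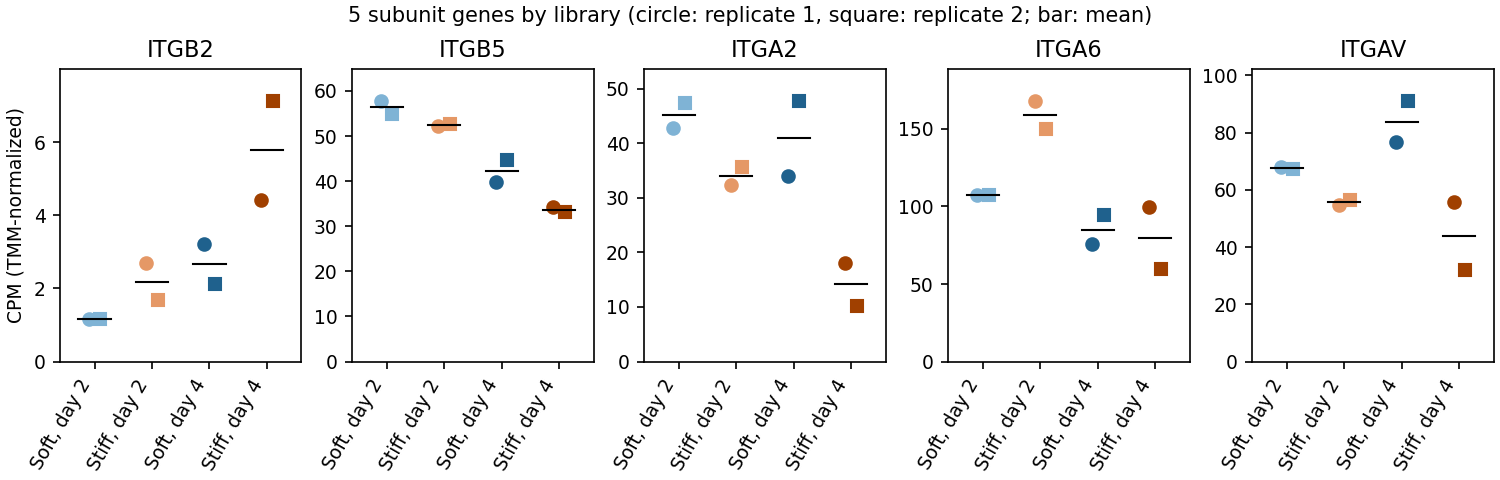
TMM-normalized CPM of ITGB2, ITGB5, ITGA2, ITGA6 and ITGAV in each library, with a linear axis from 0 for each gene. Circles are replicate 1, squares are replicate 2, and bars are means of 2 libraries. ITGB2 is highest and ITGB5 and ITGA2 are lowest on the stiff matrix at day 4.

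At day 2, no integrin subunit gene was called between the matrices in the fit of all 8 libraries. ITGA6 had 1.48-fold and ITGB2 1.88-fold higher means on the stiff matrix, ITGA2 was 1.33-fold and ITGAV 1.22-fold lower, and ITGA3, ITGA5, ITGB1 and ITGB3 differed by at most 0.08 in size on the log2 scale. In the quasi-likelihood test of edgeR, with p adjusted by Benjamini-Hochberg over all genes, 0 of the 10 passed an adjusted p of 0.05, with a background of 0% of all genes. At an unadjusted p under 0.05, 2 of the 10 (ITGA6 and ITGB2) differed, against 2.82% of all genes. DESeq2 and limma also called 0 of the 10, where DESeq2 called 6 of all genes higher and 25 lower. Libraries of the matrices did not overlap for 6 of the 10, as for 48.2% of all genes. Of these, 2 had higher values on the stiff matrix (ITGA6 and ITGB2, with 25.7% of all genes) and 4 had lower values (ITGA2, ITGA11, ITGAV and ITGB5, with 22.4% of all genes). The log2 fold change of ITGA6 was 0.57 (SE 0.235, approximate 95% interval 0.02 to 1.11, adjusted p = 1), and that of ITGB2 was 0.91 (SE 0.379, interval 0.03 to 1.79, adjusted p = 1). The median log2 fold change of the 10 was -0.05, beside 0.01 over all genes tested.

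A fit of the day 2 libraries on their own called 3 of the 10 at day 2 (ITGA6 higher, ITGA2 and ITGAV lower). Over all genes it called 314 higher and 353 lower, where the fit of all 8 libraries called 0. The stiff libraries of day 4 enter this comparison only through the shared estimate of the spread. With each library left out in turn, the log2 fold change of ITGA6 was 0.48 to 0.65.

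At day 4, the differences were larger in size for most of the genes but replicates were also farther apart. ITGA2 was 2.88-fold and ITGAV 1.90-fold lower on the stiff matrix, ITGB5 was 1.25-fold lower and ITGB2 2.16-fold higher. None of these passed the adjusted threshold: edgeR called 0 of the 10, with 0.247% of all genes called, 0.0343% higher and 0.213% lower. At an unadjusted p under 0.05, 4 of the 10 differed (ITGA2, ITGAV, ITGB2 and ITGB5), against 6.93% of all genes. The libraries did not overlap for 1 gene with higher values on the stiff matrix (ITGB2, with 11.7% of all genes) and 3 with lower values (ITGA2, ITGAV and ITGB5, with 14% of all genes). The log2 fold change of ITGA2 was -1.52 (SE 0.277, approximate 95% interval -2.16 to -0.88, adjusted p = 0.11 by edgeR). ITGAV had a log2 fold change of -0.93 (SE 0.242, interval -1.49 to -0.37, adjusted p = 0.317). That of ITGB2 was 1.11 (SE 0.346, interval 0.31 to 1.91, adjusted p = 0.46) and that of ITGB5 was -0.32 (SE 0.129, interval -0.62 to -0.03, adjusted p = 0.67). The interval of the most abundant chain, ITGB1, ran from -0.74 to 0.34 around a log2 fold change of -0.20, and that of ITGA5 from -0.51 to 0.16 around -0.17. ITGB3 had a log2 fold change of 0.06 (interval -0.85 to 0.97), which was -0.02 without scaling factors. The median over the 10 genes was -0.24, beside 0.02 over all genes tested.

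The differences between the matrices at day 4 changed in size with the replicate of the stiff matrix that was left out. ITGB3 was at -0.82 on the log2 scale without replicate 1 and at 0.61 without replicate 2. Leaving out each of the 8 libraries in turn gave -1.99 to -1.17 for ITGA2 and -1.38 to -0.58 for ITGAV. It gave 0.74 to 1.45 for ITGB2 and -0.40 to -0.24 for ITGB5. These fits have 1 library left in a condition, so their counts of calls are given only under the dependence on processing. DESeq2, the tool of the study, called 2 of the 10 at day 4, ITGA2 (adjusted p = 8.11e-05) and ITGAV (adjusted p = 0.0456), and limma called 0. Over all genes DESeq2 called 54 higher and 126 lower at day 4, more than edgeR.

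**Figure D3:**
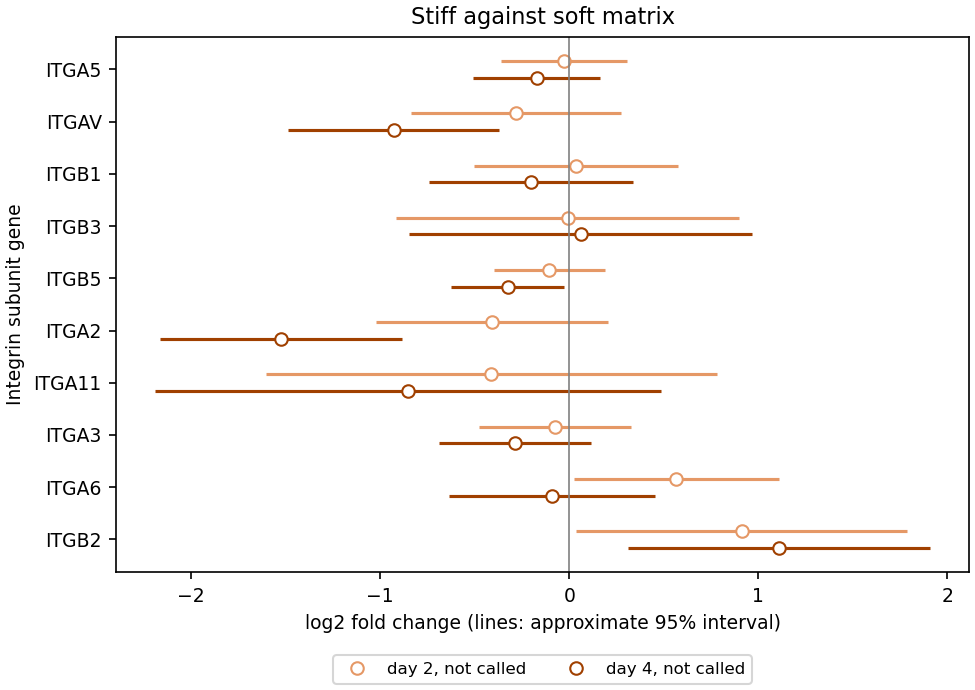
log2 fold change between stiff and soft matrix for each integrin subunit gene at day 2 (light) and day 4 (dark), with approximate 95% intervals from the edgeR fit of all 8 libraries. Open circles mark genes with an adjusted p of at least 0.05, which all are. The intervals of ITGA2, ITGAV and ITGB5 lie below 0 and that of ITGB2 above 0 at day 4.

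Averaged over both days, edgeR again called 0 of the 10 genes, with 0.426% of all genes called, 0.0755% higher and 0.35% lower. At an unadjusted p under 0.05, 4 differed (ITGA2, ITGAV, ITGB2 and ITGB5), against 7.7% of all genes. The mean log2 fold changes were -0.97 for ITGA2 (SE 0.191, adjusted p = 0.12), -0.61 for ITGAV (SE 0.170, adjusted p = 0.313), 1.01 for ITGB2 (SE 0.257, adjusted p = 0.252) and -0.21 for ITGB5 (SE 0.0907, adjusted p = 0.623). DESeq2 called 2 of the 10 here, ITGA2 lower and ITGB2 higher, and limma called 0. Over all genes DESeq2 called 80 higher and 156 lower for this mean. Over the fits that left out 1 library, the means were -1.20 to -0.79 for ITGA2 and -0.83 to -0.43 for ITGAV. They were 0.82 to 1.18 for ITGB2 and -0.25 to -0.17 for ITGB5. The stiffness effect was also compared between the days. Its change from day 2 to day 4 was -1.11 on the log2 scale for ITGA2 (SE 0.381, adjusted p = 1). For ITGA6 it was -0.66 (interval -1.43 to 0.11) and for ITGAV -0.65 (interval -1.43 to 0.14). By edgeR 0 of the 10 passed the adjusted threshold, 0% of all genes did, and 1, ITGA2, had an unadjusted p under 0.05, against 1.95% of all genes. DESeq2 and limma called 0. With 1 library left out in turn, the change ran from -1.57 to -0.75 for ITGA2, from -1.06 to -0.32 for ITGA6 and from -1.09 to -0.285 for ITGAV. For ITGB3 it ran from -0.81 to 0.63.

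From day 2 to day 4 on the soft matrix, ITGB2 rose 2.30-fold and ITGB5 fell 1.34-fold. These 2 of 10 genes passed the adjusted threshold by edgeR, 1 in each direction, where 27.4% of all genes passed it, 14.1% higher and 13.3% lower. The log2 fold change of ITGB2 was 1.20 (SE 0.376, approximate 95% interval 0.33 to 2.07, adjusted p = 0.0485) and that of ITGB5 was -0.42 (SE 0.128, interval -0.71 to -0.12, adjusted p = 0.0451). ITGB1 had a log2 fold change of 0.51 (SE 0.234, interval -0.03 to 1.05, adjusted p = 0.143) with no overlap between the days. The days did not overlap for 6 of the 10, as for 75.3% of all genes. Of these, 4 had higher values at day 4 (ITGAV, ITGB1, ITGB2 and ITGB3, with 38.5% of all genes) and 2 had lower values (ITGA6 and ITGB5, with 36.7% of all genes). ITGA3 and ITGA5, the most abundant alpha chains, had log2 fold changes of -0.02 (interval -0.42 to 0.38) and -0.11 (interval -0.45 to 0.22). The calls on the soft matrix lay near the threshold. They did not hold when any of the 6 libraries other than those of the stiff matrix at day 4 was left out. Over the fits that left out 1 library, log2 fold changes were 0.84 to 1.47 for ITGB2, -0.51 to -0.36 for ITGB5 and 0.40 to 0.58 for ITGB1.

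On the stiff matrix, ITGB2 rose 2.64-fold from day 2 to day 4, while ITGA2 fell 2.39-fold, ITGA6 1.99-fold and ITGB5 1.56-fold. By edgeR 4 of the 10 thus passed the adjusted threshold, against 27.6% of all genes, 1 higher (14% of all genes) and 3 lower (13.7% of all genes). The log2 fold changes were 1.40 for ITGB2 (SE 0.349, adjusted p = 0.023 by edgeR), -1.26 for ITGA2 (SE 0.275, adjusted p = 0.0149), -0.99 for ITGA6 (SE 0.237, adjusted p = 0.02) and -0.64 for ITGB5 (SE 0.129, adjusted p = 0.0114). The days did not overlap for 7 of the 10, as for 62.7% of all genes. Of these, 1 had higher values at day 4 (ITGB2, with 31.6% of all genes) and 6 had lower values (ITGA2, ITGA3, ITGA5, ITGA6, ITGA11 and ITGB5, with 31.1% of all genes). ITGB1 had a log2 fold change of 0.27 (interval -0.27 to 0.81), with overlapping libraries. The median over the 10 genes was -0.30, beside 0.03 over all genes tested. DESeq2 called the same 4 genes, and over all genes it called 2321 higher and 2289 lower. The calls of ITGA6 and ITGB2 did not hold when any library of day 2 was left out. Those of ITGA2 and ITGB5 did not hold when either stiff library of day 2 was. Over the fits that left out 1 library, log2 fold changes were 1.01 to 1.78 for ITGB2 and -1.73 to -0.92 for ITGA2. They were -1.41 to -0.68 for ITGA6, -0.67 to -0.62 for ITGB5 and -0.15 to 0.58 for ITGB1. ITGB3 was at -0.50 without replicate 1 of the stiff matrix at day 4 and at 0.93 without replicate 2. A fit of the 4 libraries of the stiff matrix on their own called 0, where it also called 0 of all genes.

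**Figure D4:**
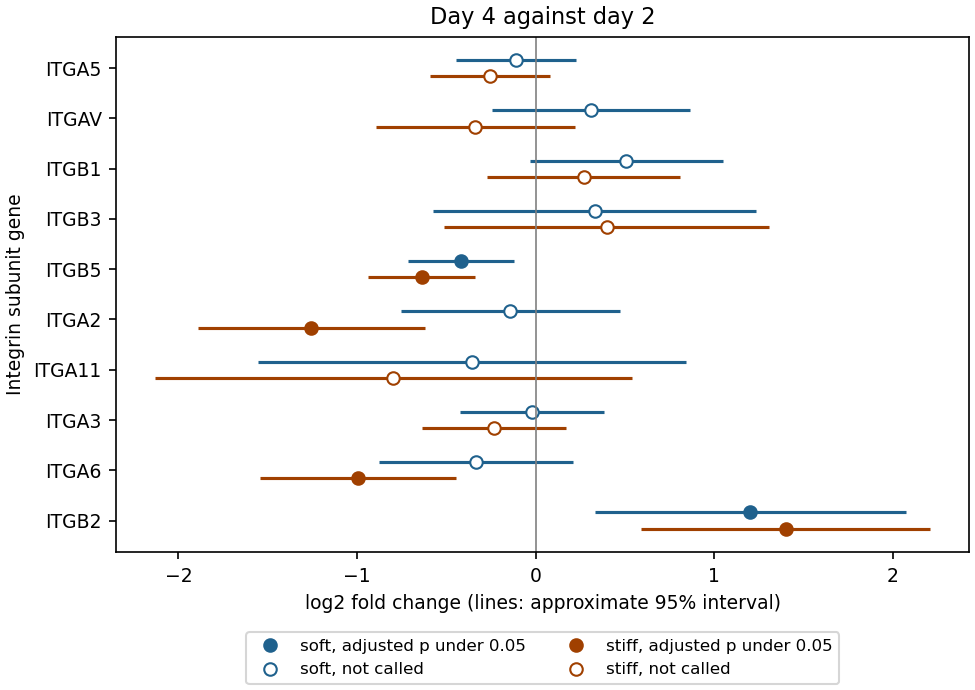
log2 fold change of each integrin subunit gene at day 4 against day 2 on the soft (blue) and the stiff (brown) matrix, with approximate 95% intervals from the edgeR fit. Filled circles mark an adjusted p under 0.05. ITGB2 (higher) and ITGB5 (lower) are filled on both matrices, ITGA2 and ITGA6 on the stiff matrix.

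ITGB2 and ITGB5 were called on both matrices over time, in opposite directions. ITGA2 and ITGA6 were called on the stiff matrix and not on the soft one, where their log2 fold changes were -0.14 (interval -0.75 to 0.47) and -0.33 (interval -0.88 to 0.21). The difference between the matrices in the change over time is the change of the stiffness effect given above, and it passed the adjusted threshold for neither gene. Of the leukocyte markers, 4 were tested, and over time edgeR called 1 higher and 1 lower on each matrix. PTPRC, which encodes the common leukocyte antigen CD45, had 16 and 18 counts on the soft and 27 and 12 counts on the stiff matrix at day 2, and 47 and 64 counts on the soft and 57 and 35 counts on the stiff matrix at day 4. Its log2 fold change over time was 2.06 on the soft (adjusted p = 0.011) and 1.56 on the stiff matrix (adjusted p = 0.0277). Between the matrices at day 4, PTPRC had a log2 fold change of -0.07, beside 1.11 for ITGB2. CSF1R, a macrophage receptor gene, went the other way over time, at -1.34 and -1.63 on the log2 scale. CD14 was at -0.40 on the soft and 0.03 on the stiff matrix over time, and CD68 at 0.23 and 0.17, and neither was called. Of the defining leukocyte genes, CD3E was at 0 in every library, and SPI1 was at or below 0.0298 FPKM. Of the alpha chains that pair with ITGB2, ITGAL was at most at 0.0322 FPKM, ITGAM at most at 0.0977 FPKM and ITGAX at 0.230 to 0.428 FPKM. In bulk RNA, a change in the number of cells of a type and a change in RNA per cell cannot be told apart. The part of leukocyte genes in the change of ITGB2 was not tested.

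The divergence of the replicates of the stiff matrix at day 4 followed gene length. Over all genes tested, the median of replicate 2 minus replicate 1 in log2 CPM was 0.62 in the shortest of 4 equal classes by length and 0.17, -0.18 and -0.47 in the following classes. The integrin subunit genes are long, with a median length of 4952 bases implied by the FPKM, beside 3133 bases over all genes. Their median difference was -0.74, and 9 of the 10 were lower in replicate 2, between -0.05 for ITGB5 and -1.43 for ITGB3. ITGB2, the shortest of them at 3143 bases, was the exception at 0.68. In the other conditions the medians of the 10 were -0.02 and 0.01 at day 2 and 0.26 on the soft matrix at day 4. The replicates of the soft matrix at day 4 also differed with length, in the opposite direction. Their medians over all genes ran from -0.215 in the shortest class to 0.215 in the longest. At day 2 these ran from -0.07 to 0.05 on the soft and from -0.003 to -0.02 on the stiff matrix. With a spline of log gene length taken out of each library, edgeR called ITGA2 and ITGAV lower on the stiff matrix at day 4. Their log2 fold changes were -1.43 (adjusted p = 0.00484) and -0.85 (adjusted p = 0.0204). This alternative was added after the data were seen, and over all genes it called 29 higher and 71 lower. What caused the divergence between the replicates was not tested.

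**Figure D5:**
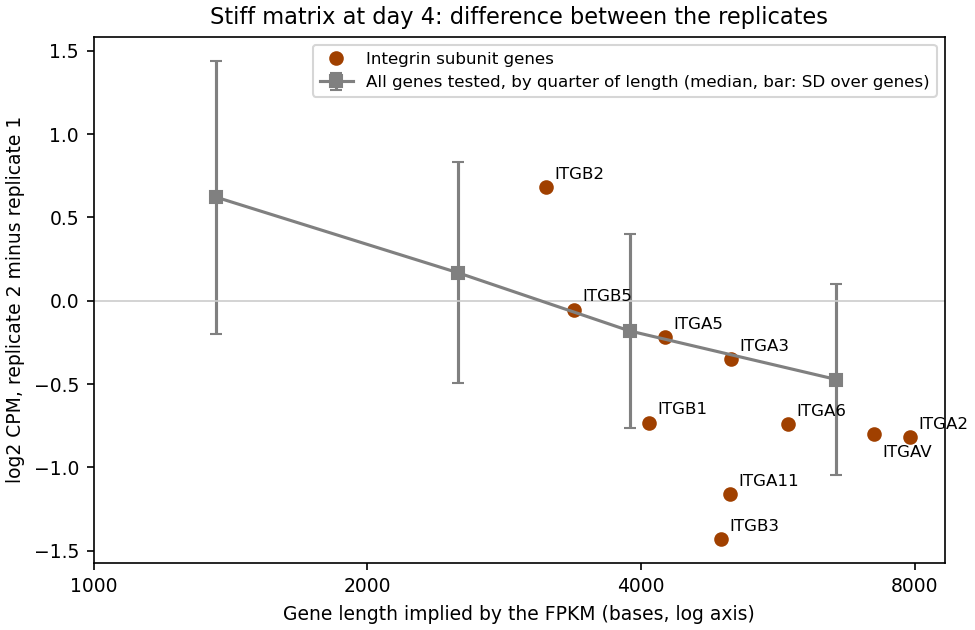
Difference in log2 CPM between replicate 2 and replicate 1 of the stiff matrix at day 4 against gene length implied by the FPKM (log axis). Brown points are the 10 integrin subunit genes, and grey squares are medians of all genes tested in 4 classes by length, with bars of 1 SD over genes. Of the 10 genes, 9 lie below 0, and the medians of all genes fall from 0.62 to -0.47 with length.

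The other genes of integrin adhesion were read from lists of the remaining subunits, intracellular adaptors, ligands and membrane partners. Of the 16 other integrin subunits, 11 had enough counts to be tested, and ITGA8, ITGAD, ITGAL, ITGAM and ITGB6 had not. The highest were ITGAE, the alpha chain that pairs with ITGB7 in binding E-cadherin, at a mean of 11.2 FPKM, ITGA7, a laminin receptor chain, at 9.23 FPKM and ITGA2B, the platelet alpha chain that pairs with ITGB3, at 1.55 FPKM. Between the matrices, edgeR called 0 of the 11 at either day, and at an unadjusted p under 0.05 it had 0 at day 2 and 2 at day 4. The median log2 fold change of these subunits was -0.16 at day 2 and -0.44 at day 4. Over time on the soft matrix, ITGB8, a partner of ITGAV, rose by 1.83 on the log2 scale from 11 and 26 counts to 35 and 68 counts (adjusted p = 0.0475), and ITGA2B fell by 0.83 (adjusted p = 0.0371). On the stiff matrix, ITGA10, a collagen receptor chain, fell by 1.66 (adjusted p = 0.0161), from 40 and 41 counts to 8 and 12 counts.

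Of 36 activators and adaptors of integrin adhesion, 33 were tested. Between the matrices edgeR called 0 at either day, 1 at day 2 and 3 at day 4 had an unadjusted p under 0.05, with a median log2 fold change of 0.07 at day 2 and 0.08 at day 4. From day 2 to day 4 on the soft matrix, 3 rose and 2 fell, and on the stiff matrix 4 rose and 8 fell, with medians of -0.29 and -0.31. Of all genes, 14.1% rose and 13.3% fell in the soft condition, and 14% rose and 13.7% fell in the stiff condition. The small GTPase genes RAP1A and RAP1B, whose products promote integrin activation, rose on the soft matrix by 0.74 and 0.50 and on the stiff matrix by 0.74 and 0.60. PARVA, a partner of integrin-linked kinase, rose by 0.56 on the soft and 0.45 on the stiff matrix. TNS1, which links integrin tails to actin, fell on both, with log2 fold changes of -0.90 for soft and -1.29 for stiff. KANK1, which ties adhesions to microtubules, fell by 0.94 with time on stiff hydrogels, as did the actin crosslinker FLNA with a log2 fold change of -0.83 and the kinase gene SRC with -0.76.

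Of 33 extracellular ligands, 31 were tested. Between the matrices edgeR called 0 at day 2 and 1, VCAM1, at day 4, and 5 and 9 had an unadjusted p under 0.05. VCAM1, a cell surface ligand of ITGA4 with ITGB1, had 402 and 445 counts on the soft and 25 and 5 counts on the stiff matrix, a log2 fold change of -4.62 (SE 0.48, adjusted p = 0.0153 by edgeR). Averaged over both days, ICAM1, the classical ligand of the ITGB2 integrins, was also lower, with a log2 fold change of -1.31 (SE 0.159, adjusted p = 0.02). ICAM1 was at 8.34 and 8.08 FPKM on the soft and 2.69 and 4.53 FPKM on the stiff matrix at day 2, and at 16.7 and 17.0 FPKM on the soft and 6.13 and 6.36 FPKM on the stiff matrix at day 4. ITGB2 thus had its higher values on the stiff matrix at each day, and ICAM1 on the soft one. By edgeR, ITGB2 was called at neither day and not for the mean of both days. ICAM1 was not called at a single day either (adjusted p = 0.562 at day 2 and 0.0665 at day 4). FN1, which encodes the fibronectin that also coated the gels, was at 95.25 to 187 FPKM, with log2 fold changes of -0.02 at day 2 and 0.36 at day 4 between the matrices (adjusted p = 1 and 0.856). Over time, 9 ligands rose and 2 fell on the soft matrix, and 9 rose and 3 fell on the stiff matrix, beside the shares of all genes given for the adaptors. VTN, which encodes vitronectin, the ligand of ITGAV with ITGB3 or ITGB5, rose by 1.86 on the soft and 2.02 on the stiff matrix. EDIL3, another ligand of ITGAV integrins, rose by 2.04 and 1.86, and SPP1, which encodes osteopontin, by 2.38 and 1.65. VCAM1 rose by 2.90 on the soft matrix and had a log2 fold change of -0.23 on the stiff one (adjusted p = 0.785). The laminin gene LAMA2 rose by 1.81 on the soft matrix, from 11 and 10 counts to 15 and 43 counts, and by 2.08 on the stiff one, from 9 and 10 counts to 34 and 30 counts.

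All 13 membrane partners were tested. Between the matrices edgeR called 0 at either day, with 2 at day 2 and 3 at day 4 at an unadjusted p under 0.05. SDC4, a syndecan that acts with the fibronectin receptor in focal adhesions, rose over time by 1.39 on the soft and 1.45 on the stiff matrix. CD47, which associates with ITGAV and ITGB3, rose by 0.79 and 0.65. The caveolin gene CAV1 rose by 0.50 on the soft matrix and was at 0.39 on the stiff one (adjusted p = 0.0759). The tetraspanin gene CD9 rose by 0.57 on the stiff matrix and was at 0.35 on the soft one (adjusted p = 0.165).

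The 10 genes varied to very different extents over the 4 conditions. The range of condition means in log2 CPM was 2.20 for ITGB2 and 1.72 for ITGA2, and it was 0.29 for ITGA5 and 0.31 for ITGA3. Over the 8 libraries, the genes whose log2 CPM followed ITGB2 most closely were GTPBP4 (Pearson r of 0.994), CD55 (0.991) and HSPD1 (0.990). For ITGA2 they were LHFPL2 (0.998) and SYN1 (0.990), of which SYN1 was at most at 0.576 CPM. These likenesses are the highest of 14570 genes, share libraries and depth with the member, and are given as a description.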

How the data were processed

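RNA of LX-2 cells was sequenced in 8 libraries. Per the methods of the study and its processing notes, the authors trimmed reads with Trim Galore, mapped them to hg19 with STAR 2.7.1a and counted them per gene with HTSeq. The deposited counts are not normalized. The gene annotation and strand setting are not given in the sources used here, and the sources name different sequencers. The same genes have deposited FPKM, also from the authors, for which the lengths implied by count and FPKM were whole numbers (tolerance 0.01) in 20029 of 20029 genes, so these values are scaled by size factors.

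Conditions and replicate numbers came from the sample labels. Counts were tested in R 4.3.3 with edgeR 4.0.16: filterByExpr, TMM factors (0.870 to 1.08) and a quasi-likelihood fit of all 8 libraries by condition, which share 1 estimate of the spread. The threshold was an adjusted p (Benjamini-Hochberg) under 0.05 over 14570 genes. SE is the size of the log2 fold change over the square root of F, and approximate 95% intervals use 7.86 degrees of freedom. CPM were TMM-normalized, with 2 as the prior count for log2 CPM. DESeq2 1.42.0, limma 3.58.1 on log2(FPKM + 1) and log2(FPKM + 0.1), other scalings and filters, separate fits, a replicate block and leaving out each library were alternatives. Crossed pairing at day 4 and length offsets were added after the data were seen. With 2 libraries per condition, precision is limited, and intervals of low genes are wide.

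Exon overlaps and coordinates came from GENCODE v44lift37, promoters from RefSeq. The 10 genes and the gene lists were chosen with earlier results of these data known. All 10 are named, from each list up to 4 called genes of largest change per comparison, the 3 most abundant other subunits, and for the 2 members of widest range the 3 genes most like them. Some genes that these rules name are not reported here. FN1, leukocyte genes and ICAM1 levels were chosen after their values were seen. The edgeR test was tried on simulated data in which each gene had the same spread in all conditions. The simulation therefore does not cover the wider spread of the stiff matrix at day 4.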

Additional observations from a re-analysis of the deposited data

How the results depend on the processing

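The number of the 10 genes called depended on the setting in each comparison. Between the matrices at day 4, DESeq2 called 2, the length offsets 2 and the crossed pairing of the day 4 replicates 3, against 0. For the mean of both days these gave 2, 2 and 3, against 0, and for the change of the stiffness effect the crossed pairing gave 1, against 0. Over all genes, these settings called 80, 63 and 124 higher and 156, 121 and 290 lower for the mean. For the change, the crossed pairing called 8 of all genes higher and 10 lower. Fits of only the 4 libraries compared called 3 at day 2 against 0, 4 over time on the soft matrix against 2, and 0 over time on the stiff matrix against 4. Over all genes these fits called 314 higher and 353 lower at day 2, and 3543 higher and 3718 lower over time on the soft matrix. Over time on the soft matrix, RLE factors, no scaling factors, a filter of 10 counts in every library and limma on log2(FPKM + 1), on log2(FPKM + 0.1) and without a filter each called 1, and a filter of at least 1 count in total called 0. Leaving out each library in turn called 0 to 1 at day 2, 0 to 8 at day 4, 0 to 7 for the mean, 0 to 5 for the change, 0 to 5 over time on the soft matrix and 0 to 9 on the stiff matrix. Each maximum was reached without replicate 1 of the stiff matrix at day 4. In every comparison, that fit also called more of all genes than the fit of all 8 libraries. Fits that leave out a library have 1 library left in a condition, so their counts are not read as specific to the integrin genes. Without scaling factors the median log2 fold change over time on the stiff matrix was -0.104 over all genes, against 0.0276. In that setting 1305 genes rose and 2313 fell, against 2034 and 1990.

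Libraries of the same replicate number did not deviate together from their condition means. The correlation of the deviations was -0.04 between matrices at day 2, 0.08 between days on the soft and 0.02 on the stiff matrix. Between matrices at day 4 it was -0.49, so replicate 1 of each matrix tended to deviate like replicate 2 of the other. Under the crossed pairing, 90 of all genes were called higher and 210 lower at day 4, against 5 and 31. That pairing takes up the correlation of these same data, and no sample label gives it. Its added calls are therefore not an independent check. The replicate block called 0 of the 10 over time on the soft matrix and changed no other of the 6 counts. Under the block, ITGB3 had log2 fold changes of -0.091 at day 4, -0.053 for the mean and -0.076 for the change, and under the crossed pairing -0.068, -0.041 and -0.055, where the unblocked fit gave 0.06, 0.03 and 0.07.

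Other settings also reversed directions. Without scaling factors ITGB1 was at -0.033 at day 2, and ITGB3 at -0.022 at day 4 and -0.049 for the mean. In limma on log2(FPKM + 1), with and without the filter, ITGB3 was at -0.050 at day 4, -0.030 for the mean and -0.041 for the change, and on log2(FPKM + 0.1) at -0.092, -0.053 and -0.078. Leaving out each library in turn gave, at day 2, -0.18 to 0.041 for ITGA3, -0.12 to 0.073 for ITGA5, -0.036 to 0.10 for ITGB1 and -0.16 to 0.14 for ITGB3. At day 4 it gave -0.50 to 0.24 for ITGA6, -1.63 to 0.16 for ITGA11, -0.61 to 0.13 for ITGB1 and -0.82 to 0.61 for ITGB3. For the mean it gave -0.29 to 0.076 for ITGB1 and -0.42 to 0.30 for ITGB3. For the change it gave -1.21 to 0.57 for ITGA11, -0.64 to 0.10 for ITGB1, -0.17 to 0.58 for ITGB2 and -0.81 to 0.63 for ITGB3. Over time it gave, on the soft matrix, -0.41 to 0.056 for ITGA2, -0.16 to 0.092 for ITGA3 and -1.37 to 0.20 for ITGA11, and on the stiff matrix -0.15 to 0.58 for ITGB1 and -0.50 to 0.93 for ITGB3. The causes were not tested. ITGA2 kept its negative direction at day 4 in all settings, between -1.99 and -1.14. At day 4, ITGA3, ITGA5, ITGAV and ITGB5 also stayed negative and ITGB2 stayed positive in all settings.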
